A study of Mus musculus with 6 samples.

Results

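The receptors and regulators of uterine contraction described here were 7 genes, Oxtr, Rxfp1, Ednra, Ednrb, Gja1, Pcp4 and Kcnmb1, taken by name from the count tables. They were 7 of 30828 genes in the tables of 4 spatial sections and 7 of 24077 genes in the table of 2 single-cell libraries, and all 7 were found in both. The study exposed CD-1 mice to diethylstilbestrol (DES), a synthetic estrogen, shortly after birth and examined the uterus at 12 months. Pups received corn oil (CO, the control) or 1 mg/kg DES per day on days 1 to 5 after birth, and DES-exposed mice of this model develop uterine adenocarcinoma. Each single-cell library was a pool, of 2 CO mice or of 4 DES mice. Each spatial section (10x Genomics Visium, in which barcoded spots capture the RNA lying above them) was cut from 1 mouse, and CO A, CO B, DES A and DES B lay on 1 slide. The 2 mice of each group had been chosen from 5 examined, CO mice in estrus and DES mice in their persistent estrus, so the contrast holds for that stage. The study noted a fold in the tissue of CO B and difficulty in naming clusters of DES B.

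The myometrium, the smooth muscle wall of the uterus, contracts when ligands such as oxytocin, prostaglandins and endothelins act on Gq-coupled receptors that raise calcium in the myocyte. Calcium bound to calmodulin activates myosin light chain kinase, gap junctions spread the excitation from cell to cell, and relaxin signalling and potassium channels oppose it. Estrogen is known to raise the oxytocin receptor and connexin 43 in the myometrium, and stromal and endothelial cells of the uterus also carry some of these receptors.

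In the annotation of build GRCm38 the 7 genes were protein-coding and lay on different chromosomes. Oxtr was on the minus strand at chr6:112473683-112489943, Rxfp1 on the minus strand at chr3:79641611-79737880, Ednra on the minus strand at chr8:77663031-77724464 and Ednrb on the minus strand at chr14:103814625-103844402. Gja1 was on the plus strand at chr10:56377330-56402513, Pcp4 on the plus strand at chr16:96467606-96525793 and Kcnmb1 on the plus strand at chr11:33963013-33973641. RefSeq promoter sequences, 250 bases before to 50 bases after each gene's start (GRCm38.p6), were matched for 6 of the 7 genes, all but Rxfp1. RefSeq's start need not be the end of the gene in the annotation above, and the Ednrb window lies inside the gene as that annotation places it. The promoters of Ednrb, Gja1, Pcp4 and Kcnmb1 are printed because these 4 genes passed the test over whole sections or epithelium-rich spots, as given below; capitals mark matches to a motif, and the sequences read 5′ to 3′ on the gene's strand, at chr14:103843652-103843951 (minus strand), chr10:56377050-56377349 (plus strand), chr16:96467356-96467655 (plus strand) and chr11:33962763-33963062 (plus strand).
Ednrb: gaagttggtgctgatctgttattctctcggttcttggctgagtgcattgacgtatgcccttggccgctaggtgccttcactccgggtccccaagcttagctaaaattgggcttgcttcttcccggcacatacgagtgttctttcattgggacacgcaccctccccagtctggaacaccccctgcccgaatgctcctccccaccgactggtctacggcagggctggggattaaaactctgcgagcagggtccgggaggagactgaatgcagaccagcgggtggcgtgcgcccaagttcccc
Gja1: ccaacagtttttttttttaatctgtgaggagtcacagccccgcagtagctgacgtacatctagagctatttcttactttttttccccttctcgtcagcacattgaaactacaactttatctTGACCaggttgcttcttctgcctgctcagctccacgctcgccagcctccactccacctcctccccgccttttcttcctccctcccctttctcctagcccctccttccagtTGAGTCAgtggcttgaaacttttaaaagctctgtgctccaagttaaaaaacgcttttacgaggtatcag
Pcp4: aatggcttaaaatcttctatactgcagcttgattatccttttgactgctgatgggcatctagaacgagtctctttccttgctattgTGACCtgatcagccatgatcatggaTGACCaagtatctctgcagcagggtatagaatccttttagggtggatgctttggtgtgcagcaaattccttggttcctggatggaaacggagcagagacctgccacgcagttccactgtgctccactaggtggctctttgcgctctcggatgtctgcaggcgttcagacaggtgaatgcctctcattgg
Kcnmb1: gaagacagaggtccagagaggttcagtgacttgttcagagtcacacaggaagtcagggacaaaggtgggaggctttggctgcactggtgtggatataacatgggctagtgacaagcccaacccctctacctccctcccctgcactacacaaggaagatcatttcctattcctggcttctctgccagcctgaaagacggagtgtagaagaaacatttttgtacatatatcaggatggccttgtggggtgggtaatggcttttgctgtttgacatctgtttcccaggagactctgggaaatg

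The letters GGTCA on either strand, the core of the estrogen response element, occurred in the promoters of Oxtr, Gja1 and Pcp4, 3 of 6 members, and in 40.5% of all 32851 promoters. In Oxtr the matches began at positions -97 and 24 counted from the start, in Gja1 at -129 and in Pcp4 at -164 and -139. TGACTCA on either strand, the AP-1 site, occurred in Gja1 alone among the 6, at -19, and in 5.20% of all promoters. The CArG box, bound by serum response factor in smooth muscle genes, was found in 0 of 6 members and in 1.63% of all promoters. No matches overlapped. A match is a description of these letters only.

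The 4 sections held 9117099 to 12506177 UMIs (unique molecular identifiers, each a counted RNA molecule) in 1357 to 1834 spots, and each had been divided by the study into 10 clusters. The CO library held 32387 cells and the DES library 16312, of which 12253 and 9701 had a cell type from the study, and 180 barcodes occurred in both libraries. Spot clusters were classed by 8 muscle, 8 stroma and 9 epithelium markers that included no member. The epithelium markers included Krt14 and Krt5, keratins of basal cells. The muscle-rich clusters so found held 580 and 654 spots in CO A and CO B and 466 and 277 in DES A and DES B. Levels are UMIs of the gene per 1000000 UMIs (CPM) of the section, region or cell type, and a spot covers several cells. Muscle markers summed to 15483 and 17268 CPM in the CO sections and to 3915 and 4408 CPM in the DES sections, with all 8 detected in each. Stroma markers summed to 3170 and 3171 CPM in CO and to 1546 and 1058 CPM in DES. Epithelium markers summed to 5008 and 4191 CPM in CO and to 14189 and 10439 CPM in DES. These shifts bear on every comparison of whole sections, and their part in the results was not tested. The study judged its sections for epithelium and, in DES, for adenocarcinoma, and cored the blocks to the areas wanted. Fewer muscle cells, less RNA per muscle cell and less of the muscle wall captured therefore cannot be told apart in a whole section. Within the muscle-rich spots the sums were 48912 and 49758 CPM in CO against 27061 and 23447 CPM in DES. Each cluster was scored against the marker levels of its own section. A DES cluster could therefore be classed as muscle-rich at a lower muscle content than a CO cluster, which bears on every comparison of muscle-rich spots. Cluster 3 of CO B, classed as stroma, had 1680 CPM of Pcp4, and cluster 3 of DES A, classed as muscle-rich, had 683 CPM. The spots that the study named stromal were cluster 8 of CO A, 6 of CO B, 4 of DES A and 5 of DES B; the last of these was also muscle-rich by its markers, and its 132 spots entered both comparisons. Muscle markers in the stromal spots were 1137 and 906 CPM in CO against 3422 and 10326 CPM in DES. Stroma markers there were 6783 and 5205 CPM in CO against 3941 and 2872 CPM in DES. Ctla2a, a gene after which the study named a cell type, was at 591, 4903, 47.4 and 64.3 CPM (CO A, CO B, DES A, DES B), lower in both DES sections and unequal between the CO sections.

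**Figure D1:**
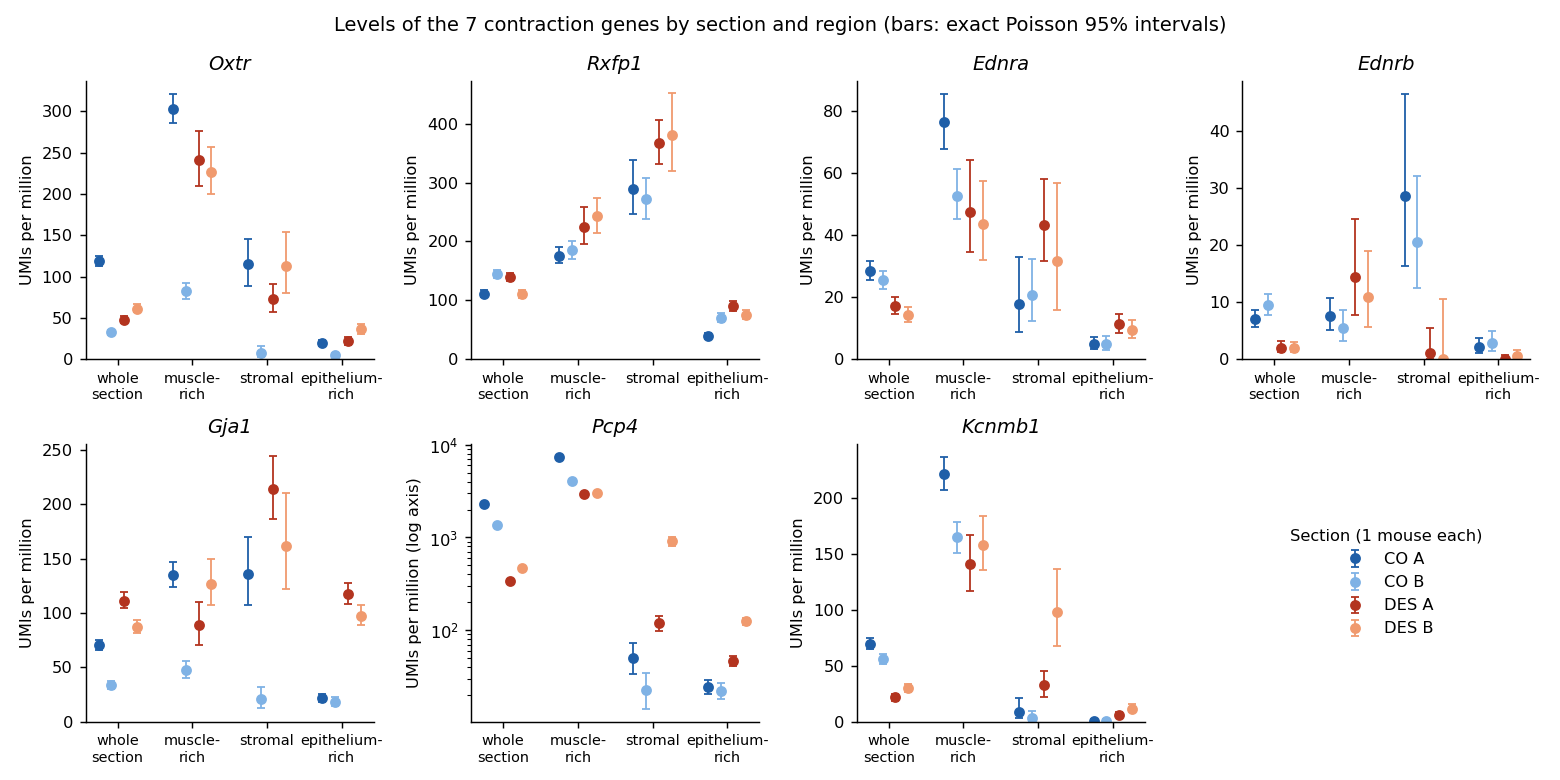
Levels of the 7 genes in CPM (vertical axis, logarithmic for Pcp4) in 4 regions (horizontal axis), 1 point per section, with exact Poisson 95% intervals as bars. Pcp4 and Kcnmb1 lie lower in both DES sections than in both CO sections over the whole section and higher over the epithelium-rich spots, and Ednrb is near 0 in the stromal and epithelium-rich spots of DES.

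Oxtr encodes the oxytocin receptor. Its level in whole sections was 119 CPM (CO A) and 32.2 CPM (CO B) in controls and 47.9 CPM (DES A) and 61.1 CPM (DES B) after exposure. The DES sections lay between the CO sections, which differed by 3.70-fold. In the muscle-rich spots the level was 303 and 82.3 CPM in CO against 241 and 227 CPM in DES, where the CO sections again enclosed both DES sections. The edgeR difference, DES minus CO, was -0.69 ± 0.63 (log2, SE) over whole sections, adjusted p = 0.570, and 0.10 ± 0.51 in the muscle-rich spots, adjusted p = 0.957. Its direction depended on which CO section was kept, being 0.58 over whole sections without CO A and -1.35 without CO B, the latter with adjusted p = 0.0187 (edgeR). In stromal spots Oxtr was at 115, 7.59, 72.9 and 113 CPM in the order CO A, CO B, DES A, DES B, kept below wherever 4 values follow each other, again with CO B lowest. In epithelium-rich spots it was at 19.3, 5.18, 21.5 and 36.0 CPM, lower than in the muscle-rich spots of every section. Neither region gave a call for Oxtr, at adjusted p = 0.855 and 0.396 (edgeR). Of the clusters with at least 20 spots, the highest Oxtr level was in a muscle-rich cluster in CO A (324 CPM), CO B (108 CPM) and DES A (296 CPM), and in a cluster of 47 spots classed as stroma in DES B (372 CPM).

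Rxfp1 encodes the relaxin receptor, which couples to cyclic AMP and is known for quieting the myometrium and remodelling the stroma. Whole sections gave 111 and 144 CPM in CO against 139 and 111 CPM in DES, with the groups overlapping fully. Muscle-rich spots gave 176 and 185 CPM in CO against 225 and 244 CPM in DES. Both DES sections were higher there, a difference of 0.20 ± 0.22 that was not called (edgeR, adjusted p = 0.745) and that was -0.00 once the DES B cluster shared with the stromal spots was left out. The spots that the study named stromal had 290, 272, 367 and 381 CPM, above the muscle-rich spots in all 4 sections, while all spots outside the muscle-rich clusters had 81.7, 127, 130 and 94.0 CPM, below them in each section. The highest Rxfp1 cluster was classed as stroma in CO A, DES A and DES B. Neither the stromal difference of 0.37 ± 0.29 nor that of 0.31 ± 0.30 in epithelium-rich spots was called (edgeR, adjusted p = 0.676 and 0.544). The 95% interval of its whole-section difference ran from -0.76 to 0.29.

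Ednra encodes endothelin receptor A, through which endothelin-1 contracts smooth muscle. It was at 28.4 and 25.4 CPM in CO A and CO B and at 17.0 and 14.3 CPM in DES A and DES B. Both DES sections lay below both CO sections. The difference of -0.99 ± 0.20 missed the threshold with edgeR (adjusted p = 0.0610) and passed it with DESeq2 (adjusted p = 0.0182). In muscle-rich spots the level was 76.4 and 52.7 CPM in CO and 47.6 and 43.5 CPM in DES, lower in DES with no overlap and not called (-0.68 ± 0.28, adjusted p = 0.293, edgeR). In all spots outside the muscle-rich clusters the groups overlapped, at 7.05, 13.8, 13.6 and 10.6 CPM. Stromal spots had 17.9, 20.6, 43.3 and 31.8 CPM and epithelium-rich spots 5.01, 4.94, 11.2 and 9.33 CPM, higher in both DES sections in each case. These differences of 0.92 ± 0.39 and 0.76 ± 0.32 were not called (edgeR, adjusted p = 0.362 and 0.186). Muscle markers were likewise higher in the DES spots of these regions, at 1201 and 1835 CPM in the DES epithelium-rich spots against 370 and 320 CPM in CO, and their part in the result was not tested.

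Ednrb encodes endothelin receptor B, which binds all endothelins and is known from endothelium, where it promotes relaxation. Whole sections held 87 and 105 Ednrb UMIs in CO A and CO B and 18 and 19 in DES A and DES B, that is 6.96 and 9.52 CPM against 1.97 and 1.92 CPM. Both DES sections lay far below both CO sections, and Ednrb was called lower in DES (-2.28 ± 0.33, adjusted p = 0.0333, edgeR). Over whole sections 3 of the 7 members passed the test, Ednrb, Pcp4 and Kcnmb1, all lower in DES, where 5.30% of 14098 genes were called, 2.67% higher and 2.63% lower. The lower level lay outside muscle. In stromal spots the counts were 16 and 19 UMIs in CO against 1 and 0 in DES, or 28.6, 20.6, 0.985 and 0 CPM. Ednrb was the 1 member called there (-4.84 ± 0.86, adjusted p = 0.0378, edgeR), against a background of 1.47% of 8914 genes, 0.796% called higher and 0.673% lower. The ratio of the summed counts, CO over DES, was 32.2, with an exact 95% interval of 5.41 to 1307 that covers counting error only. That call held without the filter on low counts (-4.86, adjusted p = 4.04e-05, edgeR). It did not hold with DESeq2 (-5.05, adjusted p = 0.0525), with any 1 section left out (difference and adjusted p, edgeR: -4.67 and 0.0561 without CO A, -5.05 and 0.153 without CO B, -6.89 and 0.342 without DES A, and -4.55 and 0.107 without DES B) or with clusters taken by their stroma score in place of the study's names (-2.73, adjusted p = 0.0738, edgeR). In epithelium-rich spots 12 and 12 UMIs in CO stood against 0 and 2 in DES, too few to enter the test; the 0 of DES A allows a level of up to 0.779 CPM (exact 95% limit).

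In muscle-rich spots Ednrb ran the other way, at 7.53 and 5.48 CPM in CO A and CO B and 14.4 and 10.9 CPM in DES A and DES B. The DES sections were higher without overlap on 29, 18, 13 and 12 UMIs, and the difference of 0.76 ± 0.41 was not called (edgeR, adjusted p = 0.462). The enrichment in muscle-rich over all other spots of the same section therefore differed between treatments. Outside muscle-rich spots the level was 6.70 and 11.2 CPM in CO and 0.609 and 0.798 CPM in DES, and the difference in enrichment, DES minus CO, was 4.48 ± 0.68 on the log2 scale (edgeR interaction, adjusted p = 0.0225, background 2.08% of 14002 genes, 1.07% called higher and 1.01% lower). It was 4.09 without DES A (adjusted p = 0.266) and 4.84 without DES B (adjusted p = 0.307), each fit then resting on 1 DES section. Endothelial markers in the muscle-rich spots were also higher in DES, at 533 and 465 CPM against 159 and 150 CPM in CO, with 6 of 6 markers detected in each section. In stromal spots they were 226 and 346 CPM in CO and 146 and 335 CPM in DES, and pericyte markers were 743 and 845 CPM in CO and 299 and 479 CPM in DES, all 6 of each list detected. Ctla2a, which names the cells with the highest Ednrb level given below, was at 371 and 9209 CPM in the stromal spots of CO and at 86.7 and 219 CPM in those of DES. In the muscle-rich spots, where Ednrb was higher in DES, Ctla2a was lower in DES, at 1511, 6559, 225 and 251 CPM. Krt14, a keratin of basal epithelial cells, was at 0 and 36.9 CPM in the stromal spots of CO and at 3153 and 817 CPM in those of DES. The part of these cells in the Ednrb result was not tested. Among clusters of at least 20 spots, Ednrb peaked in clusters classed as stroma in CO A (28.6 CPM) and CO B (43.7 CPM) and in muscle-rich clusters in DES A (30.0 CPM, 6 UMIs) and DES B (49.1 CPM, 9 UMIs). A DES A cluster of 9 spots classed as stroma had 95.8 CPM on 2 UMIs (11.6 to 346).

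Gja1 encodes connexin 43, the main gap junction protein of the myometrium. Whole sections gave 70.7 and 33.6 CPM for CO A and CO B and 111 and 87.4 CPM for DES A and DES B. Both DES sections were higher than both CO sections, and the difference of 0.71 ± 0.39 was not called (edgeR, adjusted p = 0.348). In the muscle-rich spots the levels were 135, 47.8, 88.6 and 127 CPM, with DES between the CO sections and a difference of 0.07 ± 0.46 (edgeR, adjusted p = 0.970). The epithelium-rich spots set the treatments apart. There Gja1 was at 21.6 and 18.4 CPM in CO and at 117 and 97.6 CPM in DES, with neither CO section above any DES section. It was called higher (2.14 ± 0.21, adjusted p = 0.0143, edgeR), 1 of 2 members called among the 6 tested in this region, against a background of 9.90% of 12398 genes in all, 5.87% called higher and 4.03% lower. In stromal spots the levels were 136, 20.6, 214 and 162 CPM, higher in DES without overlap but not called (1.27 ± 0.67, adjusted p = 0.474, edgeR). It was called there without the filter on low counts (1.25, adjusted p = 0.0241) and without CO A (3.10, adjusted p = 0.00186, edgeR). The call in the epithelium-rich spots was lost with either DES section left out, at adjusted p = 0.195 without DES A and 0.133 without DES B, while the difference was 2.01 and 2.25.

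The epithelium-rich spots of the treatments differed in a basal keratin. Krt14, a keratin of basal cells, was at 2.76 and 137 CPM in CO A and CO B and at 6476 and 3321 CPM in DES A and DES B. Krt14 and Krt5 were among the markers by which these spots were classed, each cluster against its own section. Part of this difference can thus come from the choice of spots, and the part of that choice in the Gja1 call was not tested. Over whole sections, where no spots were chosen, Krt14 was at 1.68, 59.7, 4175 and 2019 CPM. All spots of each section, not the epithelium-rich spots alone, were therefore also ordered by the share of their UMIs in the basal markers Krt14, Krt5 and Trp63. The groups so formed can hold muscle and stroma as well as epithelium. In DES A Gja1 was at 50.1 CPM in spots without a basal UMI and at 81.8, 115 and 129 CPM in 3 equal groups of rising share. In DES B the corresponding levels were 100, 85.8, 74.4 and 102 CPM, with no such order. In CO B the group of highest share had 82.1 CPM (95% interval 59.7 to 110) and the others 15.7 to 32.7 CPM, and a CO B epithelial cluster of 17 spots reached 168 CPM. Among DES epithelial cells, the 483 that met the study's rule for basal cells (Krt14 and Trp63 each above 1 UMI) had 73.4 CPM of Gja1 (95% interval 68.2 to 79.0) and the other 4772 had 6.76 CPM (6.37 to 7.17). Summed over all epithelial cells the level was 11.3 CPM in CO (2583 cells) and 10.5 CPM in DES (5255 cells). The cells with and without that rule had median depths of 16093 and 23573.5 UMIs. Muscle markers were also higher in the DES epithelium-rich spots, as given for Ednra, and the part of muscle or of basal cells in the Gja1 result was not tested.

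Pcp4 encodes a small peptide that binds calmodulin and modulates its calcium exchange, and it is a known marker of uterine smooth muscle. Whole sections gave 2306 and 1362 CPM in CO A and CO B and 337 and 471 CPM in DES A and DES B. Both DES sections were lower, and Pcp4 was called (-2.39 ± 0.37, adjusted p = 0.0381, edgeR). In the muscle-rich spots the level was 7410 and 4053 CPM in CO and 2939 and 3028 CPM in DES. DES was again lower without overlap, by a smaller amount that was not called with edgeR (-1.12 ± 0.29, adjusted p = 0.118). It was called with DESeq2 (adjusted p = 0.0277) and without the filter on low counts (-1.17, adjusted p = 3.28e-05, edgeR). Muscle-rich spots called 0 of the 7 members against a background of 1.47% of 11200 genes, 0.911% called higher and 0.562% lower. At an unadjusted p under 0.05, 2 members passed there, Pcp4 and Ednra, and 1713 of 11200 genes did, while DESeq2 called 1 member, Pcp4. The median UMI count of these spots was 5756 and 4940 in CO A and CO B and 1421.5 and 3260 in DES A and DES B. In all spots outside the muscle-rich clusters Pcp4 was at 36.2, 222, 51.1 and 149 CPM, with CO B highest and the groups overlapping, and cluster 3 of CO B, classed as stroma, reached 1680 CPM. Both DES sections were higher in 2 regions, at 50.1, 22.8, 119 and 915 CPM in stromal spots and 24.5, 22.1, 46.7 and 125 CPM in epithelium-rich spots. The 915 CPM belonged to the DES B cluster that was also muscle-rich, and neither region gave a call (3.87 ± 0.93, adjusted p = 0.0899, and 1.59 ± 0.50, adjusted p = 0.108, edgeR). The stromal difference was 0.16 (adjusted p = 0.970) with clusters taken by their stroma score, and 3.81 (adjusted p = 9.08e-18) without the filter on low counts (edgeR). In epithelium-rich spots Pcp4 was called with DESeq2 (1.60, adjusted p = 0.0191) and without the filter (1.59, adjusted p = 0.0497, edgeR).

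Kcnmb1 encodes the beta subunit that raises the calcium sensitivity of the large-conductance potassium channel of smooth muscle, which lowers excitability. Whole sections gave 70.0 and 56.2 CPM in CO and 21.9 and 29.9 CPM in DES. Both DES sections were lower (-1.49 ± 0.25, adjusted p = 0.0452, edgeR), a call that narrowly missed the threshold when library sizes were used without TMM factors (-1.28, adjusted p = 0.0503). In muscle-rich spots the levels were 222 and 165 CPM in CO and 141 and 158 CPM in DES, lower in DES by an amount that was not called (-0.54 ± 0.25, adjusted p = 0.354, edgeR). In epithelium-rich spots Kcnmb1 stood at 1.04 and 0.706 CPM in CO (6 and 3 UMIs) and at 6.34 and 11.8 CPM in DES (30 and 52 UMIs). It was called higher there (3.04 ± 0.57, adjusted p = 0.0394, edgeR), the other of the 2 members called in that region. Muscle markers were higher in the same DES spots, at 1201 and 1835 CPM against 370 and 320 CPM, and their part in this call was not tested. In stromal spots the levels were 8.95, 3.25, 32.5 and 98.1 CPM, higher in DES. That difference was not called with edgeR (3.38 ± 0.77, adjusted p = 0.0774) and was called with DESeq2 (adjusted p = 0.00751). It was 1.33 (adjusted p = 0.460) with clusters taken by their stroma score and 3.34 (adjusted p = 3.86e-07) without the filter on low counts (edgeR). The call in the epithelium-rich spots was lost without DES A (3.43, adjusted p = 0.220), without DES B (2.50, adjusted p = 0.303) and without CO B (2.80, adjusted p = 0.0542, edgeR).

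The calls over whole sections were likewise lost for all 3 members with either DES section left out, at adjusted p from 0.153 to 0.295 (edgeR), while their differences lay between -2.71 and -1.27. The CO sections weighed on other members. With 1 CO section left out, the fit rests on a lone CO section that is assumed to vary like the DES sections. Without CO A, Oxtr was called higher in DES in muscle-rich (1.32, adjusted p = 1.01e-06), stromal (3.46, adjusted p = 0.00696) and epithelium-rich spots (2.19, adjusted p = 0.0348, edgeR). Gja1 was then called higher over whole sections (1.38, adjusted p = 0.0153) and in muscle-rich spots (0.99, adjusted p = 4.05e-04, edgeR), and in stromal spots as given above. Without CO B, the muscle-rich differences were -0.55 for Oxtr and -0.49 for Gja1, neither of them called. Without CO B calls of lower levels in muscle-rich spots appeared for Pcp4 (-1.49, adjusted p = 1.40e-09), Ednra (-0.92, adjusted p = 0.00244) and Kcnmb1 (-0.74, adjusted p = 0.00806, edgeR), and without CO A Pcp4 was called there too (-0.63, adjusted p = 0.0449). Ednra was called lower over whole sections without either CO section (adjusted p = 0.0345 without CO A and 0.0206 without CO B), and Rxfp1 higher in epithelium-rich spots without CO B (0.76, adjusted p = 0.0412, edgeR). In stromal spots Pcp4 and Kcnmb1 were called higher without CO A (adjusted p = 0.0461 and 0.0338) and without DES A (0.00685 and 0.0247, edgeR).

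Groups that did not overlap were counted as well. Over whole sections 1 member was higher in both DES sections and 4 were lower, where 43.6% and 17.8% of the tested genes were so ordered. In muscle-rich spots these counts were 2 and 3 members (34.7% and 14.2% of genes), in stromal spots 5 and 1 (24.6% and 17.9%) and in epithelium-rich spots 6 and 1 (47.5% and 16.9%), the 1 being Ednrb, which was not among the tested genes. With 2 sections against 2, an exact permutation test of a single value cannot give a two-sided p below 0.333. Scaling changed how calls split. Over whole sections 376 genes were called higher and 371 lower, against 522 and 263 without TMM factors. In muscle-rich spots the split was 102 and 63 against 173 and 49, and in epithelium-rich spots 728 and 500 against 1287 and 341. Without those factors the median difference over all genes was 0.20, 0.18 and 0.28 in these regions, and Kcnmb1 over whole sections was the member whose call changed.

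**Figure D2:**
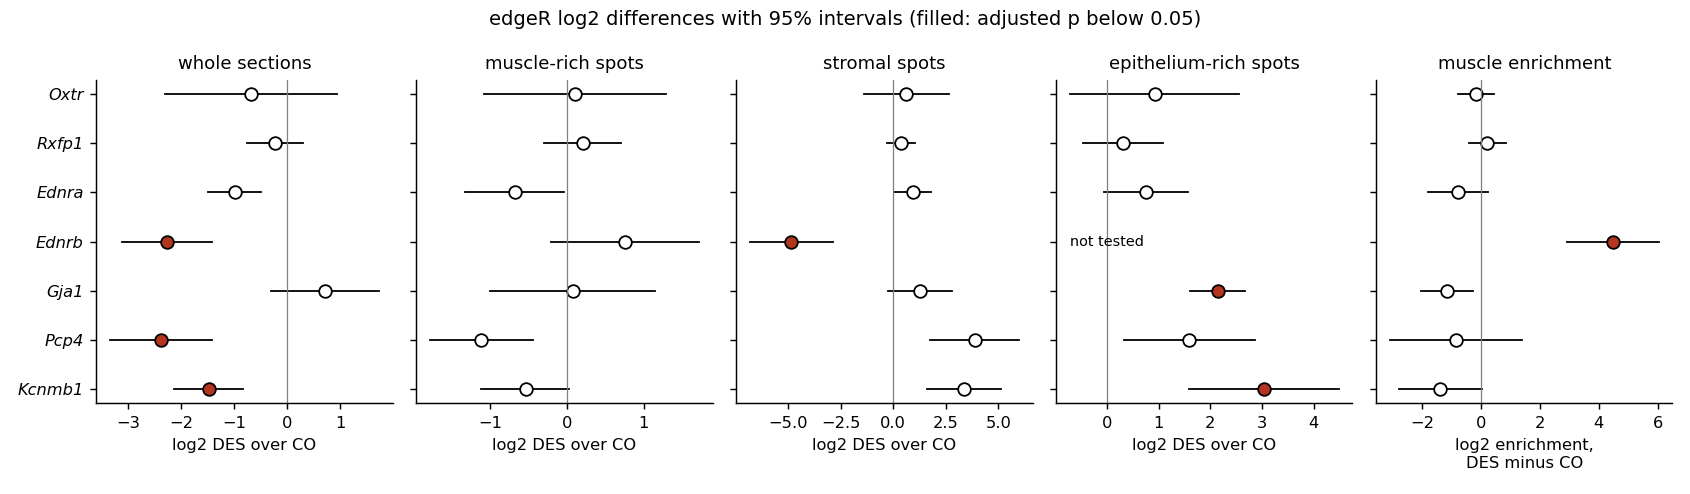
Differences between DES and CO for each of the 7 genes (rows) on the log2 scale (horizontal axes), 1 panel per comparison, from edgeR with 95% intervals as bars and filled points where the adjusted p was below 0.05. Filled points are Ednrb, Pcp4 and Kcnmb1 over whole sections, Ednrb in stromal spots and in the muscle enrichment, and Gja1 and Kcnmb1 in epithelium-rich spots, and no point is filled in the muscle-rich spots.

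Because muscle-rich spots of the treatments differed in their muscle content, spots with 4 to 8% of their UMIs in muscle markers were also compared, a window chosen after seeing the data. It held 416 and 393 spots of CO A and CO B and 58 and 26 of DES A and DES B. Pcp4 was at 8167 and 4206 CPM in CO and 4887 and 6229 CPM in DES, so that the DES sections now lay between the CO sections. Kcnmb1 was at 238 and 179 CPM in CO and 207 and 325 CPM in DES, again with overlap. Oxtr was at 314 and 69.6 CPM in CO against 354 and 382 CPM in DES, with both DES sections above both CO sections. Its difference was not called in this window (edgeR). Gja1 was at 141, 50.7, 78.2 and 112 CPM and Rxfp1 at 183, 151, 175 and 146 CPM, both overlapping. Ednra was at 79.9, 49.8, 50.6 and 50.5 CPM, which overlapped as well. Ednrb was at 5.39, 5.99, 18.4 and 11.2 CPM, higher in DES on 4 and 2 UMIs and not called (edgeR).

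Members were also set against the muscle markers themselves. For each 1000 muscle marker UMIs of a whole section there were 149 and 78.9 Pcp4 UMIs in CO and 86.1 and 107 in DES, so the groups overlapped. Kcnmb1 had 4.52 and 3.25 such UMIs in CO and 5.60 and 6.77 in DES, higher in both DES sections. Oxtr had 7.68 and 1.86 in CO and 12.2 and 13.9 in DES. Within muscle-rich spots the ratios for Pcp4 were 151, 81.5, 109 and 129, those for Kcnmb1 4.54, 3.31, 5.20 and 6.76, and those for Oxtr 6.20, 1.65, 8.92 and 9.69. Pcp4 overlapped between treatments in both sets of ratios. Kcnmb1 and Oxtr were higher in DES in both, and so were Rxfp1, Gja1 and Ednra. In muscle-rich spots the ratios for Rxfp1 were 3.60, 3.72, 8.31 and 10.4. Those for Gja1 were 2.76, 0.961, 3.27 and 5.41, and those for Ednra 1.56, 1.06, 1.76 and 1.85. Ednrb was higher in DES there, at 0.154, 0.110, 0.532 and 0.463, and overlapped over whole sections. The muscle markers that divide these ratios were lower in DES. These ratios carry no test.

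**Figure D3:**
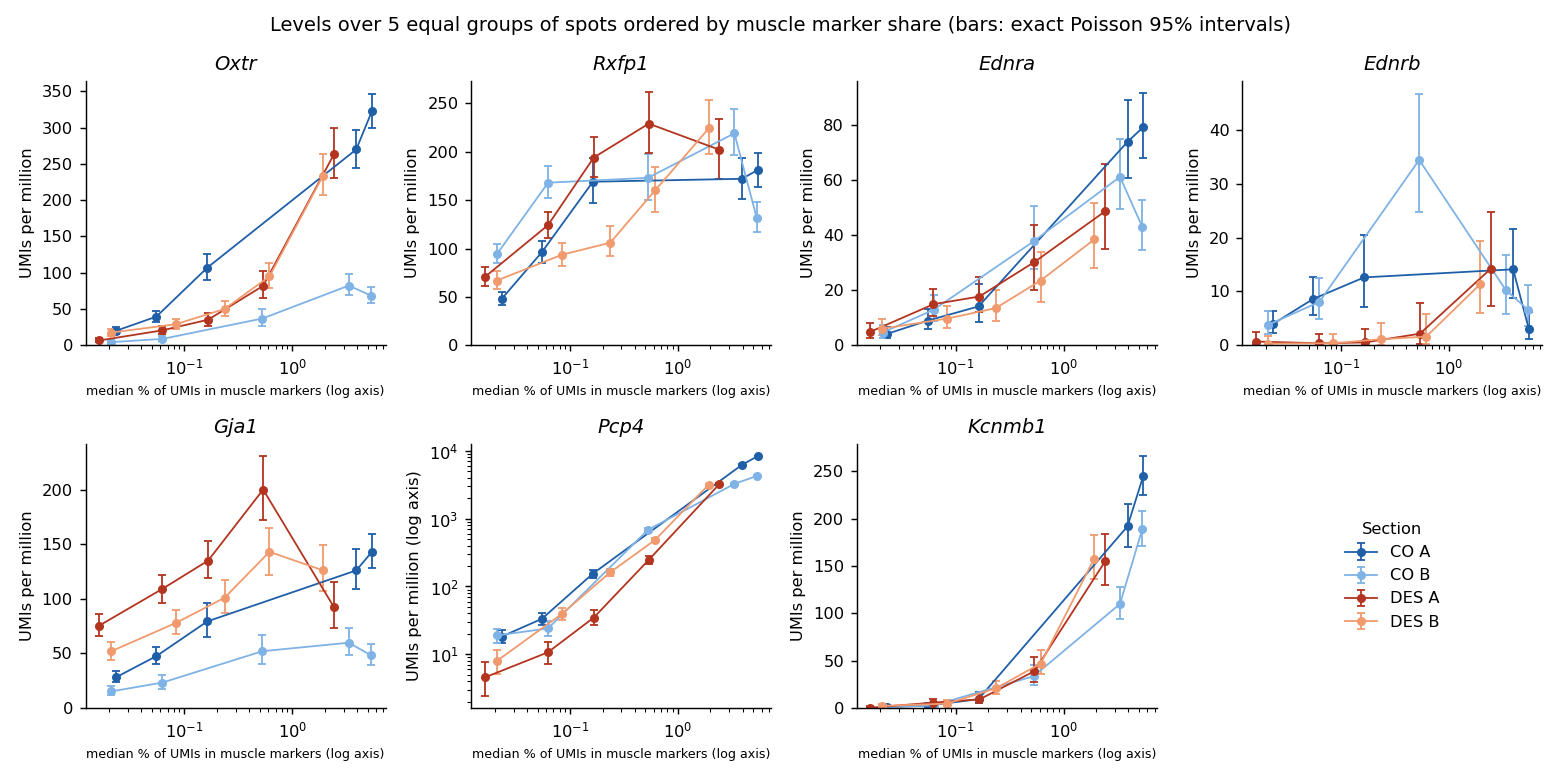
Levels of each gene in CPM (vertical axis, logarithmic for Pcp4) over 5 equal groups of spots per section, placed at the group's median percent of UMIs in muscle markers (horizontal axis, logarithmic), with 1 line per section and exact Poisson 95% intervals as bars. Pcp4 and Kcnmb1 climb over all 5 groups in every section, Oxtr does so in every section but CO B (82.3 then 68.5 CPM in the last 2 groups), and Ednrb in DES is above 10 CPM in the group of highest share alone.

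Over the 40 clusters of the 4 sections, 19 of the 28 pairs of member and section had their highest cluster (of at least 20 spots) in muscle. These were all 4 sections for Ednra, Pcp4 and Kcnmb1, 3 for Oxtr, 2 for Ednrb and 1 each for Rxfp1 and Gja1. The share of all genes that peaked in muscle was not computed, so this count has no background. Some peaks rest on few UMIs, as that of Ednra in CO B (114 CPM on 10 UMIs, 54.7 to 210). In CO A, Gja1 peaked in muscle-rich cluster 4 at 266 CPM, while its peaks in CO B (89.8 CPM), DES A (214 CPM) and DES B (237 CPM) were in clusters classed as stroma. Genes of like pattern were ranked by Pearson's r of log2(CPM + 10) over the 40 cluster profiles after each section's mean was removed, among 9105 genes with at least 500 UMIs. The profiles share sections and depth, so r is a description. Closest to Pcp4 were the contractile genes Myh11, Acta2 and Actg2 (each 0.99), and closest to Oxtr were Gas1 (0.94), Fxyd1 (0.93) and Arhgef25 (0.93). Kcnmb1 was closest to Optc (0.94), Myl6 (0.93) and Wfdc1 (0.93), and Ednra to Itga9 (0.89), Pcdh7 (0.89) and Itih5 (0.88). Ednrb stood nearest to Plvap (0.79) and Tie1 (0.78), known genes of endothelium, and to Galnt15 (0.76). Its own total was 229 UMIs, below the 500 asked of the other genes. Small clusters, such as those of 9 and 2 spots in DES A, weighed as much as large ones. Rxfp1 was nearest to Tcf4 (0.83), Osr2 (0.82) and Mrc2 (0.81), and Gja1 to Phlda3 (0.80), Capns1 (0.80) and Gas6 (0.78). Among the members themselves r was 0.90 between Pcp4 and Oxtr, 0.91 between Pcp4 and Kcnmb1 and -0.12 between Rxfp1 and Ednrb.

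The single-cell libraries placed the members by cell type. With 1 library per treatment, differences between CO and DES cells have no replicate check, and the intervals given (exact Poisson for levels, exact Clopper-Pearson for shares, 95%) cover counting error only. The 85 CO myocytes carried 40579 CPM of muscle markers, all 8 detected, and the 75 CO pericytes 7140 CPM of pericyte markers, all 6 detected. The DES library had 1 stromal cell and 5 endothelial cells with a type and none named myocyte, pericyte or Ctla2a, so the CO library alone shows the muscle members by cell type.

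**Figure D4:**
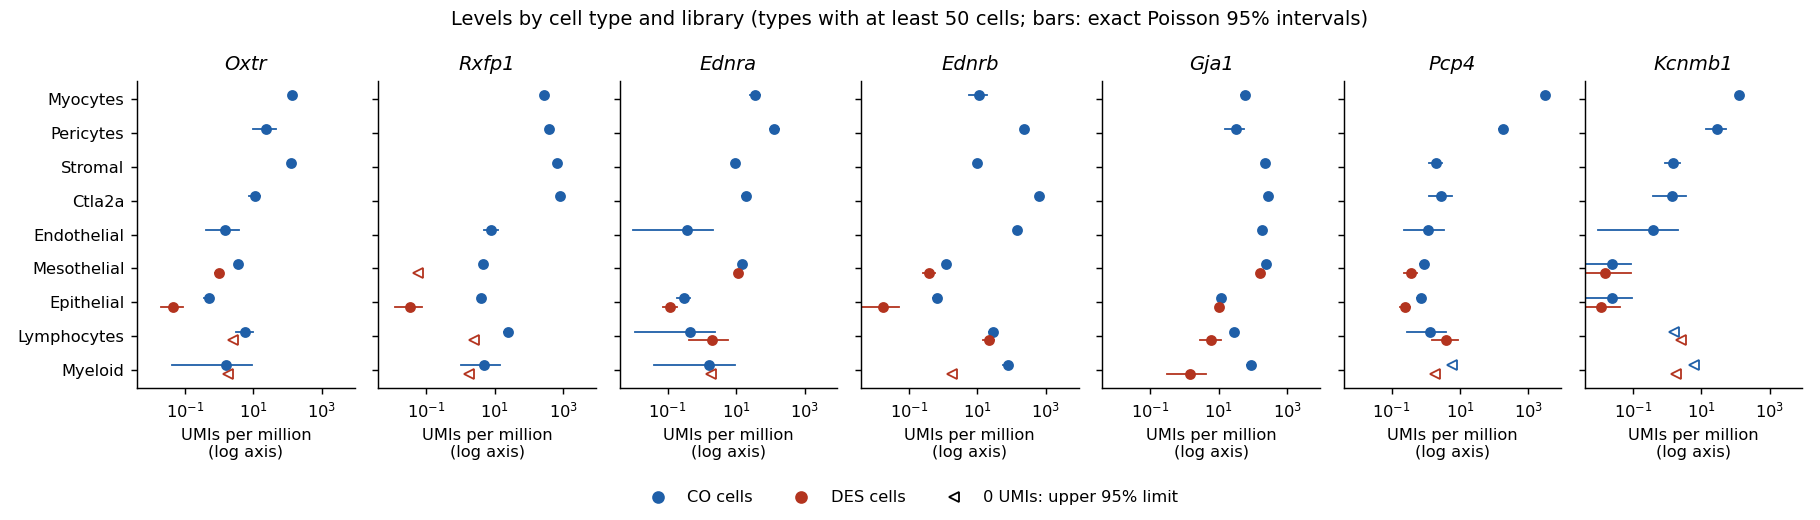
Levels of the 7 genes in CPM (horizontal axis, logarithmic) by cell type (rows, types with at least 50 cells) in the CO and DES libraries, with exact Poisson 95% intervals as bars and open triangles at the upper limit where 0 UMIs were counted. Pcp4 and Kcnmb1 are highest in myocytes, Ednra in pericytes, and Rxfp1, Ednrb and Gja1 in Ctla2a cells, while Oxtr is about level in myocytes and stromal cells.

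In the CO cells, Oxtr was at 138 CPM in myocytes (117 to 161) and 129 CPM in stromal cells (122 to 136), 2 levels whose intervals overlap. Its next level was 22.7 CPM in pericytes, from 8 UMIs of 1 cell. Oxtr UMIs were found in 76.5% of myocytes and 53.3% of stromal cells, and in 1.39% of epithelial cells, taken as background. Median depths were 11282, 8726.5 and 23458 UMIs, and after each cell was thinned to 3000 UMIs the shares were 33.3% (23.4 to 44.5), 30.7% (28.2 to 33.3) and 0.234%. The thinned shares of myocytes and stromal cells did not differ beyond their intervals, and both were far above the epithelial share.

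Rxfp1 had its highest CO levels in Ctla2a cells (784 CPM, 751 to 817), stromal cells (656 CPM, 641 to 670), pericytes (374 CPM) and myocytes (272 CPM), with no overlap between neighbours in this order. Ednra was highest in pericytes at 130 CPM (95.5 to 174), then in myocytes at 36.5 CPM, whose interval overlapped that of Ctla2a cells at 20.1 CPM. Mesothelial cells, the outer lining, followed with 15.4 CPM of Ednra. Ednrb had 630 CPM in Ctla2a cells (601 to 660), 230 CPM in pericytes, 142 CPM in endothelial cells, 76.3 CPM in myeloid cells, 28.5 CPM in lymphocytes and 10.9 CPM in myocytes on 12 UMIs. Thinned to 3000 UMIs, 76.8% of Ctla2a cells, 44.4% of pericytes, 19.9% of endothelial cells and 0.273% of epithelial cells had an Ednrb UMI (87.3%, 53.3%, 33.7% and 1.70% before thinning, at median depths of 5763, 3920, 6309 and 23458 UMIs). The intervals of Ednrb in myocytes and stromal cells (9.88 CPM) overlapped, far below those of pericytes and endothelial cells.

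Gja1 was broad, at 268 CPM in Ctla2a cells, 241 in mesothelial cells, 229 in stromal cells and 181 in endothelial cells of CO. Myeloid cells at 89.3 CPM (67.2 to 116) and myocytes at 59.3 CPM (45.7 to 75.5), whose intervals overlap, followed, and epithelial cells were lowest at 11.3 CPM. Pcp4 was at 3137 CPM in myocytes (3033 to 3243) and 184 CPM in pericytes, the latter from 65 UMIs in 5 of 75 cells, and at 0 to 2.87 CPM in the other types with at least 50 cells. Kcnmb1 was at 125 CPM in myocytes (105 to 148) and 28.4 CPM in pericytes, and at most 1.45 CPM elsewhere. Thinned to 3000 UMIs, 97.6% of myocytes had a Pcp4 UMI and 29.8% a Kcnmb1 UMI, against 0.312% and 0% of epithelial cells, where 0 of 2562 allows up to 0.144%. Without thinning these shares were 98.8%, 63.5%, 1.86% and 0.0774%.

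In the DES cells the members other than Gja1 and Ednra were nearly absent. Over all 16312 cells and 288919190 UMIs there were 7 UMIs of Rxfp1, 4 of Kcnmb1, 93 of Oxtr, 85 of Ednrb and 85 of Pcp4, while the CO library held 20145, 268, 3708, 4738 and 5243. The DES sections held more of these members, with Rxfp1 at 139 and 111 CPM in the sections and 0.0242 CPM in the library, Pcp4 at 337 and 471 against 0.294 CPM, Oxtr at 47.9 and 61.1 against 0.322 CPM and Kcnmb1 at 21.9 and 29.9 against 0.0138 CPM. Both libraries held at least 50 mesothelial cells, epithelial cells, lymphocytes and myeloid cells. Gja1 in mesothelial cells was at 241 CPM in CO (6866 cells, 237 to 244) and 156 CPM in DES (3837 cells, 153 to 159), and Ednra there was at 15.4 CPM (14.5 to 16.2) and 11.6 CPM (10.8 to 12.4). Thinned shares of mesothelial cells with a Gja1 UMI were 46.0% in CO and 36.6% in DES (79.4% and 78.5% before thinning, at median depths of 10436 and 12329 UMIs). Oxtr in mesothelial cells was at 3.45 CPM in CO and 0.991 CPM in DES. In epithelial cells, taken as background, Oxtr was likewise lower in DES, at 0.495 and 0.0454 CPM. Rxfp1 was at 4.61 and 0 CPM in mesothelial cells and at 3.86 and 0.0341 CPM in epithelial cells of CO and DES. The part of RNA from other cells, such as the stromal cells of the CO library, in these low levels was not tested. Ednrb in myeloid cells was at 76.3 CPM in CO (67 cells, 56.0 to 101) and at 0 CPM in DES (228 cells), which allows up to 1.81 CPM, and Gja1 in the same cells was at 89.3 and 1.47 CPM. These CO myeloid levels came from few cells, the 47 Ednrb UMIs from 9 cells and the 55 Gja1 UMIs from 12. The CO myeloid cells also carried 5044 CPM of stroma and 613 CPM of mesothelium markers, against 264 and 49.5 CPM in the DES myeloid cells. The part of RNA from other cell types in these levels was not tested. In lymphocytes (423 CO and 239 DES cells) Ednrb was at 28.5 and 21.5 CPM, with overlapping intervals, and Gja1 at 28.9 and 6.04 CPM. The cells so named held more myeloid than lymphocyte markers, at 3431 against 896 CPM in CO and 8886 against 602 CPM in DES.

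Around the members, 100 other genes of the contraction pathway in 8 lists were followed. The lists were chosen with earlier results of these data known. Their counts beside the shares of all genes, here and below, are therefore a description and not an independent comparison. Over whole sections 84 were tested, of which 2 were called higher and 15 lower in DES, where 5.30% of all genes tested were called, with a median difference of -0.78 against -0.01 over all genes tested. The number called among the 84 was 0 without DES A and 0 without DES B, 38 without CO A and 31 without CO B (edgeR), and 28 with DESeq2. Of all genes the same settings called 14 of 14657, 3 of 14708, 2819 of 14538, 2336 of 14505 and 1791 of 14098. Among those called, Ptger3, a prostaglandin E2 receptor that contracts the uterus, was at 19.0 and 23.7 CPM in CO and 2.63 and 2.23 CPM in DES (-3.34 ± 0.26, adjusted p = 0.0183, edgeR). Mylk, the myosin light chain kinase, was at 735 and 729 CPM against 278 and 290 CPM (-1.57 ± 0.17, adjusted p = 0.0219), and Pcp4l1, a gene like Pcp4, at 252 and 169 against 36.4 and 46.2 CPM (-2.56 ± 0.30, adjusted p = 0.0242, edgeR). Pln, the inhibitor of the calcium pump of the sarcoplasmic reticulum, fell by 3.30, Kcne4, a potassium channel subunit, by 2.29 and Rgs5, a regulator of G proteins and pericyte marker, by 1.79 on the log2 scale. Among those higher was Ece1, the endothelin-converting enzyme, at 68.4 and 75.9 CPM in CO and 421 and 367 CPM in DES (2.24 ± 0.17, adjusted p = 0.0183, edgeR). By list, 4 of 13 tested genes of calmodulin and myosin light chain kinase were lower, as were 3 of 12 potassium channel genes, 3 of 11 calcium channel genes, 2 of 9 other contraction receptors, 1 of 8 connexins, 1 of 12 genes of relaxation receptors and cyclic nucleotide signalling, 1 of 16 genes of Gq signalling and calcium release and 0 of 3 ligands, where 2.63% of all genes were lower. The muscle markers were lower in the same DES sections.

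In muscle-rich spots 70 of these genes were tested and 2 were called, 1 in each direction, against 0.911% of all genes higher and 0.562% lower, with a median of -0.35 against -0.00 over all genes. With 1 section left out the number called ranged from 0 (without DES A or DES B) to 26 (without CO A), and it was 25 without CO B (edgeR) and 5 with DESeq2. Of all genes, 28 of 12419 were called without DES A, 16 of 12425 without DES B, 1609 of 10393 without CO A, 1661 of 10350 without CO B and 300 of 11200 with DESeq2. Ptger3 was at 60.3 and 71.6 CPM in CO and 16.6 and 9.96 CPM in DES (-2.51 ± 0.32, adjusted p = 0.0159, edgeR). Ece1 was at 80.8 and 77.1 against 225 and 216 CPM (1.30 ± 0.21, adjusted p = 0.0355, edgeR). In stromal spots, where 1.47% of all genes were called, Ece1 was the 1 gene called of 50 (1.70 ± 0.31, adjusted p = 0.0410, edgeR; median of the 50 0.23 against 0.00). Ece1 was thus higher in DES in every region compared, and its DES levels were highest in epithelium-rich spots, at 551 and 477 CPM. Epithelium markers were also higher in the DES spots of the other 2 regions. In muscle-rich spots they were at 715 and 895 CPM in CO against 2584 and 2159 CPM in DES. In stromal spots they were at 3441 and 3140 CPM in CO against 9651 and 3652 CPM in DES. Their part in the Ece1 calls was not tested.

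In epithelium-rich spots 62 were tested, 9 called higher and 3 lower, against 5.87% and 4.03% of all genes tested, with a median of 0.20 against -0.01 over all genes. Of the 62, 0 were called without DES A and 0 without DES B, where edgeR called 0 of all genes and 1581 and 1907 had an unadjusted p below 0.05, and DESeq2 called 17 with all sections, beside 1885 of 12398 genes in all. Ano1, a calcium-activated chloride channel, was at 11.9 and 14.8 CPM in CO and 129 and 123 CPM in DES (2.96 ± 0.20, adjusted p = 0.0110, edgeR), and Ece1 differed by 2.85. Beside Gja1, the connexin Gjb6 was higher, at 0.518 and 0.942 against 9.51 and 15.7 CPM (3.83 ± 0.55, adjusted p = 0.0248, edgeR). Ptger4, a relaxing prostaglandin E2 receptor, was at 90.6 and 162 CPM in CO and 23.9 and 30.0 CPM in DES (-2.51 ± 0.34, adjusted p = 0.0229, edgeR). Tbxa2r, the thromboxane receptor, Cacnb2, a calcium channel subunit, and Mylk were also called higher, with Cacnb2 at 0.345 and 0 CPM in CO and 6.97 and 8.19 CPM in DES. Muscle markers were higher in the same DES spots, at 1201 and 1835 against 370 and 320 CPM, and their part in these calls was not tested. In the enrichment of muscle-rich over other spots 6 of 84 were called, Ednrb apart, against 2.08% of all genes: Rgs5 and Gjc1 were higher and Gjb6, Rgs2, Stim1 and Ece1 lower in DES.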

How the data were processed

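Per the labels and the study's methods, the authors aligned reads to mm10 with Cell Ranger 3.0.1 (cells) or Space Ranger 1.2.2 (sections), after bcl2fastq 2.20.0.422, and deposited raw UMI counts per gene and barcode with cluster and cell type labels. Counts were summed per section, or per region and section, and tested over sections with edgeR 4.0.16 (quasi-likelihood F-test, TMM factors, filterByExpr, Benjamini-Hochberg adjustment over all genes, threshold 0.05), 2 CO against 2 DES. The muscle enrichment was the interaction of region and treatment with a term for each section. Regions, the named members and at most 8 called pathway genes per comparison followed written rules. The members and gene lists were chosen with earlier results of these data known. Cells were summed per type, with no test between 1 CO and 1 DES library, and thinned to 3000 UMIs for shares. Doublets were not removed again. DESeq2 1.42.0, other scalings, filters and spot choices were alternatives. Scripts were tested on simulated data. 350 cells with labels had no counts here. A result on 1 called pathway gene is not reported here.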

Additional observations from a re-analysis of the deposited data

Results flagged for a closer look

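The enrichment of a gene in muscle-rich over other spots of the same section was compared between treatments, and 1 of 7 members and 6 of 84 other pathway genes differed (edgeR interaction, adjusted p below 0.05), where 2.08% of all genes tested did. Ednrb was the member, at 4.48 ± 0.68 (log2, DES minus CO). Rgs5, a regulator of G proteins and pericyte marker, had enrichments of -0.38 and -0.36 in CO A and CO B and 2.89 and 2.62 in DES A and DES B, a difference of 3.15 ± 0.23 (adjusted p = 0.00305, edgeR). Gjc1, connexin 45, was at 1.06 and 0.84 in CO and 2.58 and 2.75 in DES (2.06 ± 0.38). Lower in DES were Rgs2, with 3.23 and 2.94 in CO and 1.21 and 1.69 in DES (-1.67 ± 0.26), Stim1, a calcium sensor of the endoplasmic reticulum, with 1.83 and 1.40 against -0.02 and 0.03 (-1.71 ± 0.29), and Ece1, with 0.36 and 0.03 against -0.98 and -0.83 (-1.14 ± 0.22). Gjb6, connexin 30, was at 5.52 and 2.35 in CO and -1.15 and -2.43 in DES (-7.30 ± 0.97), and its CO levels in epithelium-rich spots were below 1 CPM. All 7 calls were lost with either DES section left out.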

How the results depend on the processing

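Each comparison rests on 2 sections per group, and the 4 leave-one-out fits assume that the lone section of a group varies like the other group. Depth limits Ednrb most, which had 37 UMIs in both DES sections together. Of 60 recomputed values of members that were called, 40 kept the call, 20 missed the threshold in the same direction and none turned. Of 259 values of members that were not called, 21 turned and another 33 passed the threshold in the same direction. Among those that turned, the Pcp4 enrichment also passed it, without CO A (0.78) and with the 20% of spots highest in muscle markers (2.61). Cell levels moved by more than their counting interval in 116 of 420 recomputed values, and thinned shares in 143 of 280, recomputed with less thinning or none.

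The number of genes called was 1791 with DESeq2 over whole sections, 300 in muscle-rich and 1885 in epithelium-rich spots. Without a filter it was 998 in muscle-rich spots, 714 in stromal spots and 1047 for the muscle enrichment. Taking the 20% of spots with most muscle markers gave 354 genes in muscle and 713 for the enrichment. Choices made after seeing the data gave 69 genes (spots with 4 to 8% muscle marker UMIs) and 84 genes (clusters with the stroma score highest). With 1 section left out the count ranged from 3 to 2819 over whole sections, 16 to 1661 in muscle-rich, 40 to 357 in stromal and 0 to 2807 in epithelium-rich spots, and 0 to 1830 for the enrichment. The edgeR counts of 0 came without DES A or DES B, where 1581 and 1907 genes in epithelium-rich spots and 1360 and 1346 for the enrichment had an unadjusted p below 0.05. The causes were not tested.

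Differences that turned, with 1 section left out, were Oxtr over whole sections (-1.35 to 0.58), Oxtr (-0.55 to 1.32) and Gja1 (-0.49 to 0.99) in muscle-rich spots, Oxtr in stromal spots (-0.39 to 3.46), Rxfp1 in epithelium-rich spots (-0.04 to 0.76), and, for the enrichment, Pcp4 (-2.51 to 0.78), Oxtr (-0.53 to 0.12) and Rxfp1 (-0.12 to 0.50). The Pcp4 enrichment passed the threshold at both ends, lower in DES without CO B (adjusted p = 5.32e-29) and higher without CO A (0.0333), and without CO B Kcnmb1 (-2.75, adjusted p = 3.59e-13), Gja1 (-1.43, 4.80e-07) and Ednra (-1.43, 7.76e-04, edgeR) were also called lower. Without a filter the enrichments of Gja1 (-1.08, adjusted p = 0.0137) and Kcnmb1 (-1.31, adjusted p = 0.0176, edgeR) were called lower. With the 20% of spots highest in the markers these were Gja1 in muscle (-0.04), Rxfp1 in epithelium (-0.26) and, for the enrichment, Pcp4 (2.61, adjusted p = 0.00586, edgeR), Oxtr (1.08), Kcnmb1 (0.91) and Ednra (0.15). In the 4 to 8% window they were Rxfp1 (-0.14), Gja1 (-0.10) and Kcnmb1 (0.27), and without the DES B cluster that the study calls stromal Rxfp1 (-0.00 in muscle and -0.09 for the enrichment) and Gja1 (-0.04). No paired analysis was possible because the section letters name separate mice and pair nothing across groups.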

Other observations

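Cells without a deposited type were 20134 in the CO library and 6611 in the DES library. In the CO cells without a type, Gja1 was at 97.9 CPM (96.4 to 99.4), Rxfp1 at 53.4 CPM, Ednrb at 12.5 CPM, Oxtr at 9.79 CPM, Pcp4 at 9.26 CPM, Ednra at 6.19 CPM and Kcnmb1 at 0.560 CPM. In the DES cells without a type, Gja1 was at 36.6 CPM (34.8 to 38.5) and Ednra at 2.41 CPM, and each of the other 5 members had at most 24 UMIs.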
